A study of Mus musculus with 6 samples.

Results

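Cathepsins are proteases of endosomes and lysosomes, and legumain is an asparaginyl endopeptidase that works beside them. In B cells they cut antigen and the invariant chain, the chaperone that fills the peptide groove of major histocompatibility complex (MHC) class II, so that antigen taken up through the B cell receptor can be shown to T cells. The 10 genes described here are Ctse, Ctss, Ctsb, Ctsd, Ctsh, Ctsl, Ctsz, Ctsc, Ctsa and Lgmn, taken by symbol from the 24346 gene symbols of the series. All 10 were present, each with 1 value per library. They were selected on FPKM values of these same libraries, around the high level of Ctse in G9gl, by gene family. Their differences between genotypes are therefore given as a description, with no p-value. They stayed in the fit across all genes, and the number of them that it called is given once, beside the share of all genes called.

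The RNA came from follicular (Fo) B cells, sorted from the spleen at 8 weeks of age as B220+ CD93- cells with low CD21 and high CD23. The groups were 3 libraries from mice homozygous for G9gl, a knock-in of the heavy and light chains of the germline form of a lupus-derived antibody to DNA, and 3 libraries from C57BL/6 (B6) control mice, called WT. Such B cells were compared with WT to learn about anergy, a state of weak response to antigen. Whether each library is a different mouse is not stated in the labels, so p-values cover only library-to-library spread, which could be technical.

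Values are FPKM, fragments scaled to transcript length and to library size, as deposited. They summed to 657759 to 671533 in the G9gl libraries and 603054 to 611557 in the WT libraries over the genes in the files. Immunoglobulin genes were not analysed here. Depth was estimated from the FPKM that 1 fragment gives at 10430000 to 12250000 fragments per library, so that 1 FPKM in a transcript of 2 kb rests on 20.9 to 24.5 fragments. The B cell marker Cd79a, a signalling chain of the B cell receptor, stood at 2167 to 2300.4 FPKM in the G9gl libraries and 2408 to 2625 FPKM in the WT libraries. Fcer2a, which encodes the CD23 used in the sort, stood at 775 to 830.02 FPKM in the G9gl libraries and 897 to 1000.1 FPKM in the WT libraries. Of the B cell markers, Cd79a, Ms4a1, Fcer2a, Pax5 and Cd37 were called lower in G9gl by limma, Cd22 was called higher, and Cd79b and Ebf1 did not pass. Ms4a1, which encodes CD20, had 646 ± 16.2 FPKM in G9gl and 863 ± 56.6 FPKM in WT (limma adjusted p 7.8e-04). Cr2, which encodes the CD21 of the sort, had 61.2 ± 2.42 FPKM in G9gl and 131 ± 7.20 FPKM in WT (limma adjusted p 5.2e-06). Of 20 macrophage markers, 12 had enough signal to test, and 10 were higher in G9gl and 0 lower. Their sum over all 20 was 62.9 to 69.8 FPKM in the G9gl libraries and 24.8 to 32.2 FPKM in the WT libraries. Testing required at least 1 FPKM in 3 or more libraries. Axl (1.06 to 1.61 FPKM in G9gl, 0.276 to 0.586 FPKM in WT) and Zbtb46 below reached this in G9gl alone, which fixed their direction. Csf1r, C1qa, Slc40a1 and Cd209a reached it in every G9gl library but not in every WT library. The filter thus favoured calls of higher for them too. Itgam, too low to test, averaged 0.331 FPKM in G9gl and 0.674 FPKM in WT. With a filter of 5 FPKM, 5 macrophage markers were called higher. Of these, C1qb, C1qc, Spic and Hmox1 reached 5 FPKM in G9gl alone, which again fixed their direction. Over all tested genes, 11.8% were called higher and 11.6% lower. Of 9 dendritic cell markers 3 could be tested, of which Zbtb46 and Cd209a were higher in G9gl and 0 lower. They summed to 7.24 to 7.93 FPKM in the G9gl libraries and 2.26 to 4.27 FPKM in the WT libraries, and Clec10a was at 0 in all. Of 9 monocyte and neutrophil markers 3 could be tested, of which Ly6c2 and S100a8 were higher in G9gl and 0 lower, with sums of 54.3 to 69.6 FPKM in the G9gl libraries and 13.3 to 21.8 FPKM in the WT libraries. Macrophages, dendritic cells and monocytes also express cathepsins, and the part of such cells in the results below was not tested. In RNA of pooled cells, a change in the number of cells of a type and a change in RNA per cell cannot be told apart.

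The upstream sequences of Ctss and Ctsc are shown because their RefSeq start coincided with the GENCODE start and the window held a searched motif. Each run is the 250 bases before the RefSeq start, 5′ to 3′ on the gene's strand, build GRCm38.p6, and capitals mark the motif. The Ctss window, chr3:95526536-95526785, plus strand, holds GAAA, any 2 bases and GAAA, a core bound by interferon regulatory factors. The Ctsc window, chr7:88277835-88278084, plus strand, holds GAGGAAGT, a core bound by PU.1, on the opposite strand.
Ctss: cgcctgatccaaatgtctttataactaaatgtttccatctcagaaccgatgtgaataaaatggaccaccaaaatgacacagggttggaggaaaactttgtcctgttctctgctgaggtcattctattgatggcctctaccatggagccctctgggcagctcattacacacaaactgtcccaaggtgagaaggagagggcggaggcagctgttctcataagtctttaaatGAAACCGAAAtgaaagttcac
Ctsc: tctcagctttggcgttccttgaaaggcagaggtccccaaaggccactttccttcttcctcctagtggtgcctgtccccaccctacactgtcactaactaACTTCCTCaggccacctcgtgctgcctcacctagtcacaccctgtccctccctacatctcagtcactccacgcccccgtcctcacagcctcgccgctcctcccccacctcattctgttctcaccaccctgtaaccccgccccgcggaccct

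Both strands were searched for these motifs and for CACGTG, the core of the site of the lysosomal transcription factor TFEB. The 3 motifs do not overlap one another in these windows. Of the 10 genes, 7 had an entry among the 32851 RefSeq windows, and Ctse, Ctsb and Ctsh had none. The interferon regulatory factor core was found in Ctss alone, 21 bases before the start, and in 2.98% of all windows. GAGGAAGT was found in Ctsc alone, 151 bases before the start, and in 2.44% of all windows. CACGTG was found in 4 genes, Ctsa, Ctsd, Ctsl and Lgmn, and in 6.02% of all windows. In these 4 the RefSeq start of the window with CACGTG lay 211 to 900 bases from the GENCODE start. Ctsa and Lgmn each had a further window, nearer the GENCODE start, without it. A gene with more windows has more places for a match, so genes and windows are unlike units. In Ctsd CACGTG occurred 98 and 245 bases before the start. These are matches of letters, and nothing about binding follows from them.

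Among the aspartic proteases, Ctse, which encodes the endosomal cathepsin E, stood at 147, 247 and 236 FPKM in the 3 G9gl libraries and at 5.86, 8.07 and 6.21 FPKM in the 3 WT libraries. Every G9gl library was far above every WT library, and the lowest G9gl value was that of replicate 1. Means were 209.7 ± 55.0 and 6.71 ± 1.19 FPKM (SD, n = 3 each), a ratio of 31.2. On the log2(FPKM + 1) scale, which understates changes of low genes, the difference was 4.75 ± 0.19 (SE), rank 2 of 10122 tested genes. Ctse lies on chromosome 1 at 131638306 to 131675505 (mm10, plus strand). 

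Ctsd, the aspartic protease of lysosomes (chromosome 7, 142375911 to 142388038, minus strand), had 84.1, 86.0 and 84.7 FPKM in G9gl libraries against 61.9, 66.7 and 68.4 FPKM in WT libraries. The groups did not overlap, and the log2 difference was 0.37 ± 0.058 (SE). The ratio of Ctse to Ctsd was 1.74, 2.87 and 2.78 in the G9gl libraries and 0.0946, 0.121 and 0.0908 in the WT libraries. Ctse was thus above Ctsd in each G9gl library and below it in each WT library. GENCODE gives 34.4% of Ctsd exon bases also to the same-strand gene Gm49369, for which the files hold no value, so fragments could be split between them.

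Ctss, the cysteine endopeptidase that trims the invariant chain in B cells and dendritic cells (chromosome 3, 95526786 to 95556403, plus strand), was the most abundant of the 10 genes in both genotypes. It had 907, 841 and 880.1 FPKM in G9gl libraries against 713, 651 and 668 FPKM in WT libraries. The groups did not overlap, and the log2 difference was 0.37 ± 0.053 (SE). Ctsl, the endopeptidase that does this work in the thymic cortex (chromosome 13, 64359337 to 64370890, minus strand), was the least abundant. It had 4.23, 3.61 and 3.68 FPKM in G9gl libraries against 2.64, 1.66 and 2.46 FPKM in WT libraries. Its groups did not overlap either, with a log2 difference of 0.58 ± 0.15 (SE), and WT replicate 2 was the lowest. GENCODE gives 26.8% of Ctsl exon bases also to Gm47123 on the opposite strand and 6.09% to Gm49230 on the same strand. The files hold no value for either, and these libraries keep no strand, so fragments could be split between them.

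**Figure D1:**
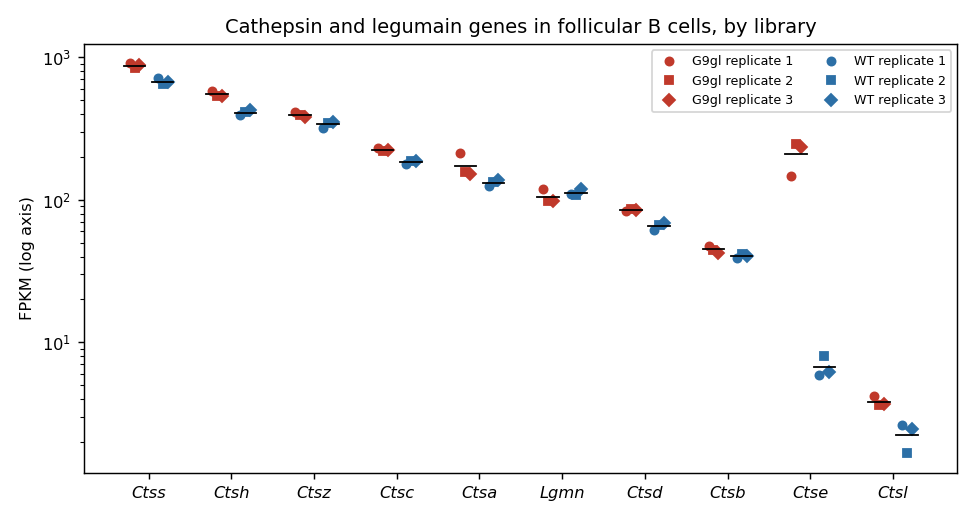
FPKM on a log axis for each of the 10 genes, with 1 point per library, G9gl left of WT, and a bar at each group's mean (n = 3 each). Ctse stands at 147 to 247 FPKM in G9gl and at 5.86 to 8.07 FPKM in WT, while for each other gene the 2 genotypes lie closer to each other than they do for Ctse.

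The exopeptidases trim peptides from their ends. Ctsh, an aminopeptidase (chromosome 9, 90054152 to 90076089, plus strand), had 580.1, 534 and 539.7 FPKM in G9gl libraries against 393, 412 and 424 FPKM in WT libraries. The groups did not overlap, and the log2 difference of 0.43 ± 0.053 (SE) was below those of Ctse and Ctsl and above those of the other members. Ctsz, a carboxypeptidase (chromosome 2, 174427493 to 174439039, minus strand), had 415, 393 and 383 FPKM in G9gl libraries against 319, 348 and 354 FPKM in WT libraries. The gap between the groups was narrower here, with a log2 difference of 0.22 ± 0.057 (SE).

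Ctsc, the dipeptidyl peptidase that activates serine proteases of granules (chromosome 7, 88278085 to 88310888, plus strand), had 231, 221 and 225 FPKM in G9gl libraries against 179, 187 and 189 FPKM in WT libraries. The groups did not overlap, and the log2 difference was 0.29 ± 0.049 (SE). The 8 granule proteases listed as its substrates (Gzma, Gzmb, Gzmk, Gzmm, Elane, Prtn3, Ctsg and Cma1) were too low to test. Ctsb, which acts as an endopeptidase and a carboxypeptidase (chromosome 14, 63122462 to 63145923, plus strand), had 47.6, 44.7 and 42.2 FPKM in G9gl libraries against 39.1, 41.5 and 40.6 FPKM in WT libraries. All G9gl values lay above all WT values by a small margin, with a log2 difference of 0.15 ± 0.066 (SE). Of its exon bases, 12.8% are shared with Fdft1 on the opposite strand, and these libraries keep no strand.

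Ctsa is a serine carboxypeptidase that also protects beta-galactosidase and neuraminidase in the lysosome (chromosome 2, 164832873 to 164841032, plus strand). It had 215, 157 and 151 FPKM in G9gl libraries against 125, 133 and 139 FPKM in WT libraries. The groups did not overlap, but replicate 1 stood apart from the other G9gl libraries. The log2 difference was 0.38 ± 0.12 (SE), and 0.22 without G9gl replicate 1. Pltp, a phospholipid transfer gene on the opposite strand that shares 10.5% of the Ctsa exon bases, had 38.8 FPKM in G9gl replicate 1 and 14.2 and 15.3 FPKM in G9gl replicates 2 and 3, against 12.2, 14.9 and 15.2 FPKM in WT libraries. Its part in the Ctsa value was not tested. The partners of the Ctsa protein, named after their values were seen, were Glb1 at 29.4 ± 1.78 FPKM in G9gl and 25.2 ± 1.88 FPKM in WT (limma adjusted p 0.078), and Neu1 at 19.4 ± 0.626 FPKM in G9gl and 21.8 ± 0.957 FPKM in WT (limma adjusted p 0.14), with n = 3 each.

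Lgmn, legumain, which also cuts several cathepsins into their mature chains (chromosome 12, 102394084 to 102439813, minus strand), had a lower mean in G9gl, unlike the other 9 genes. It had 119.7, 98.6 and 97.5 FPKM in G9gl libraries against 110.1, 108 and 119 FPKM in WT libraries. The groups overlapped, since G9gl replicate 1 was the highest of all 6 libraries, and the log2 difference was -0.10 ± 0.084 (SE). The Lgmn log2 fold change was -0.20 without G9gl replicate 1 and -0.05 without G9gl replicate 3.

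All 10 genes had at least 1 FPKM in every library and so entered the fit across genes (limma, Benjamini-Hochberg adjusted p under 0.05 over the 10122 genes that reached 1 FPKM in 3 or more libraries). Of all tested genes 23.4% were called, 11.8% as higher and 11.6% as lower in G9gl. Among the 10 genes, 8 were called higher, 0 lower, and Ctsb and Lgmn were not called. All G9gl libraries lay above all WT libraries for 9 of the 10, as they did for 20.3% of tested genes, while 40.8% of tested genes had no overlap in either direction. Since the genes were chosen with this contrast known, nothing is read from these counts. The median log2 difference was 0.37 over the 10 genes and -0.0022 over all tested genes. Without a single library the calls of Ctsa (any 1 WT library), Ctsz (G9gl replicate 2 or WT replicate 1) and Ctsl (WT replicate 2) ended. With values rescaled to TPM, which moved the median of all tested genes to -0.13, the median of the 10 was 0.24, 6 were called higher, and 730 genes were called higher and 2493 lower in all, against 1191 and 1174 with FPKM.

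The order of levels, which FPKM allows between genes because it divides by length, was the same in both genotypes apart from Ctse. In G9gl it ran Ctss, Ctsh, Ctsz, Ctsc, Ctse, Ctsa, Lgmn, Ctsd, Ctsb and Ctsl by mean FPKM. The ranges over libraries of Ctsc and Ctse overlapped, as did those of Ctse and Ctsa, so that these neighbours did not differ beyond their spread. In WT the order was Ctss, Ctsh, Ctsz, Ctsc, Ctsa, Lgmn, Ctsd, Ctsb, Ctse and Ctsl, and no ranges of neighbours overlapped. By mean level Ctse ranked 5 of 10 in G9gl and 9 of 10 in WT.

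Together the 10 genes summed to 2750, 2625 and 2642 FPKM in the G9gl libraries and to 1949, 1957 and 2011 FPKM in the WT libraries. Without Ctse the sums were 2603, 2378 and 2406 FPKM in G9gl and 1944, 1949 and 2005 FPKM in WT. Ctse made up 7.89 ± 2.23% of the sum in G9gl and 0.340 ± 0.0624% in WT (SD, n = 3 each). The 6 cysteine cathepsins made up 78.5 ± 0.931% in G9gl and 83.9 ± 0.515% in WT. A larger share of Ctse lowers the other shares, and each of these 6 had a higher mean FPKM in G9gl. Lgmn made up 3.93 ± 0.365% in G9gl and 5.702 ± 0.219% in WT.

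**Figure D2:**
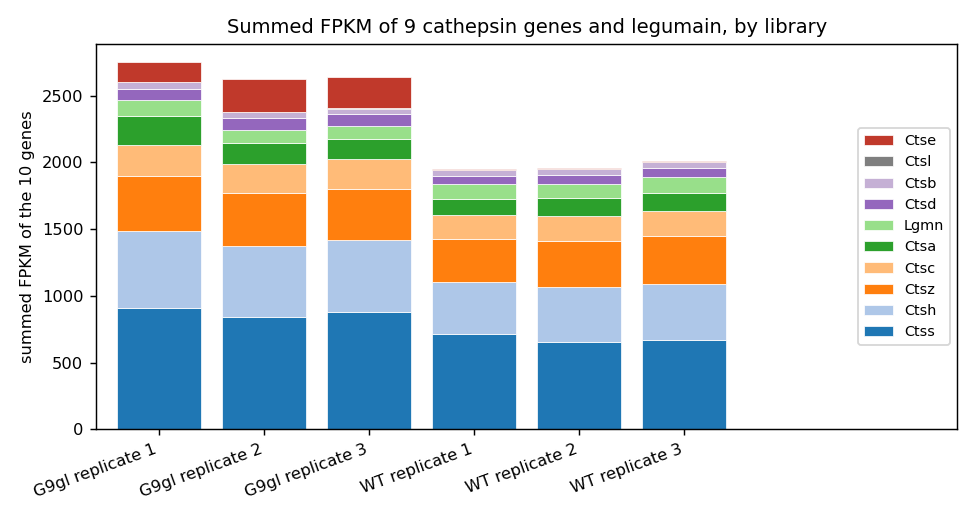
Stacked FPKM of the 10 genes in each library, the 3 G9gl libraries left of the 3 WT libraries, with Ctse on top. The sums are 2625 to 2750 FPKM in G9gl and 1949 to 2011 FPKM in WT, and Ctss, Ctsh and Ctsz form most of each bar.

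Within G9gl, replicate 1 held the highest value for 8 of the 10 genes, all but Ctse and Ctsd, and it held the highest value for 37.3% of tested genes. For Ctse and Ctsd it held the lowest. Ctse varied most in G9gl, with a coefficient of variation of 26.2%, followed by Ctsa at 20.3% and Lgmn at 11.9%, while Ctsd varied by 1.17%. In WT the largest were Ctsl at 23.1% and Ctse at 17.8%. The summed macrophage markers were 69.8, 62.9 and 63.6 FPKM in G9gl replicates 1, 2 and 3 and 32.2, 27.4 and 24.8 FPKM in WT replicates 1, 2 and 3. Of the defining macrophage markers, C1qa had 2.26, 2.40 and 2.83 FPKM in G9gl libraries against 1.07, 1.57 and 0.352 FPKM in WT libraries, and Lyz2 had 14.5, 12.6 and 12.4 FPKM in G9gl libraries against 7.97, 5.19 and 6.54 FPKM in WT libraries. Csf1r had 2.15, 2.11 and 2.83 FPKM in G9gl libraries against 0.736, 1.21 and 0.736 FPKM in WT libraries. Spic was called higher too, and Mertk was too low to test. Adgre1, also a defining marker, had 3.37, 2.58 and 2.89 FPKM in G9gl libraries against 2.38, 2.33 and 2.55 FPKM in WT libraries. It was not called (limma adjusted p 0.28). Cd163 was at most 0.0975 FPKM in any library, and no macrophage marker was at 0 in all libraries.

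**Figure D3:**
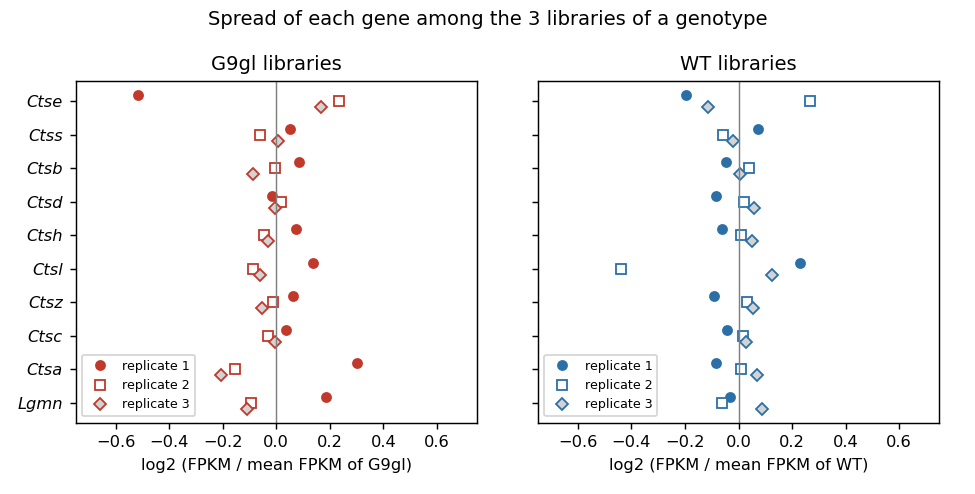
Log2 of each library's FPKM over the mean of its genotype, for each of the 10 genes, G9gl on the left and WT on the right. In G9gl, replicate 1 is the highest point for 8 genes and the lowest for Ctse and Ctsd.

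Most other cathepsins and related aspartic proteases were at low levels in these cells. Of the 19 listed genes, 3 could be tested and 8 were at 0 in all libraries. Ctso, a cysteine cathepsin (chromosome 3, 81932601 to 81956725), rose, with 63.0, 86.9 and 82.5 FPKM in G9gl libraries against 50.2, 48.1 and 47.4 FPKM in WT libraries (log2 difference 0.65 ± 0.11 SE, limma adjusted p 0.0024). All G9gl values were above all WT values, and replicate 1 was the lowest G9gl library, as for Ctse. Napsa, an aspartic protease gene related to Ctsd and Ctse, fell to 362 ± 19.99 FPKM in G9gl, against 418 ± 8.58 FPKM in WT (log2 difference -0.21 ± 0.054 SE, limma adjusted p 0.022). The Napsa log2 fold change was no longer called without G9gl replicate 2 or 3 or WT replicate 1 or 2, with limma adjusted p of 0.0552 to 0.083. Bace1 had 3.81 ± 0.279 FPKM in G9gl and 4.34 ± 0.336 FPKM in WT (limma adjusted p 0.36). Ctsk, the osteoclast cathepsin near Ctss on chromosome 3 (95499256 to 95509362), averaged 0.328 ± 0.0968 FPKM in G9gl and 0.398 ± 0.228 FPKM in WT. The ratio of Ctse to Napsa was 0.386, 0.673 and 0.693 in the G9gl libraries and 0.0138, 0.0193 and 0.0152 in the WT libraries.

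Of 11 listed inhibitors of cathepsins, 3 could be tested and 4 were at 0 in all libraries. Of the 3, 2 rose and 0 fell, where 11.8% of all tested genes were called higher and 11.6% lower. Serpina3g, a serpin that inhibits cysteine cathepsins, rose to 299 ± 35.9 FPKM in G9gl, against 40.4 ± 4.33 FPKM in WT (log2 difference 2.86 ± 0.097 SE, limma adjusted p 2.5e-07). It has near copies among neighbouring serpins, which could share fragments. Cstb, the cytosolic inhibitor stefin B, rose to 140.1 ± 8.50 FPKM in G9gl, against 116 ± 4.92 FPKM in WT (log2 difference 0.27 ± 0.062 SE, limma adjusted p 0.013), a call that ended with values rescaled to TPM. Cst3, the secreted cystatin C, had 295 ± 12.8 FPKM in G9gl and 342 ± 31.2 FPKM in WT (limma adjusted p 0.057), and it was called lower without WT replicate 2, after quantile, median-ratio or TPM scaling, and with a robust variance model. The ratio of Ctss to Cstb was 6.27 ± 0.419 in G9gl and 5.85 ± 0.275 in WT.

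The class II loading genes, whose products the cathepsins serve, were mostly higher in G9gl. Of 16 tested, 10 rose, 1 (March1) fell and 5 did not pass, with a median log2 difference of 0.34. Among all tested genes 11.8% were called higher and 11.6% lower. H2-Oa, a subunit of the loading modulator H2-O, rose to 818 ± 39.7 FPKM in G9gl, against 388 ± 25.0 FPKM in WT (limma adjusted p 5.5e-06). H2-Eb1 and H2-Aa, which encode class II chains, rose to 3267 ± 59.5 and 8867 ± 293 FPKM in G9gl, against 2203 ± 32.9 and 6261 ± 127 FPKM in WT (limma adjusted p 3.2e-05 and 1.1e-04). Ciita, the class II transactivator, rose to 257 ± 15.5 FPKM in G9gl, against 175 ± 9.21 FPKM in WT (limma adjusted p 2.7e-04). Cd74, the invariant chain cut by cathepsin S, had 32294 ± 832 FPKM in G9gl and 26338 ± 865 FPKM in WT (log2 difference 0.29 ± 0.052 SE, limma adjusted p 0.0033), and its call ended after quantile normalization and with no filter on low values. Ifi30, the lysosomal thiol reductase, rose to 294 ± 61.4 FPKM in G9gl, against 169 ± 9.93 FPKM in WT (limma adjusted p 0.0017). Cd74 and Ifi30 were named after their values were seen. The fall of March1, a ubiquitin ligase gene of class II, was not called without G9gl replicate 1 or 2 or WT replicate 1 or 2. MHC genes have close paralogs that could share fragments, and macrophages, dendritic cells and monocytes, whose markers are given above, express them too.

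Of 36 tested hydrolases and activators, 11 rose, 4 fell and 21 did not pass, with a median log2 difference of 0.21. For this list and those below, the shares over all tested genes were 11.8% higher and 11.6% lower. Galns, a sulfatase gene, rose to 19.5 ± 0.753 FPKM in G9gl, against 12.2 ± 0.828 FPKM in WT (limma adjusted p 6.2e-04). Acp5, the tartrate-resistant acid phosphatase, fell to 98.4 ± 19.2 FPKM in G9gl, against 181 ± 5.49 FPKM in WT (limma adjusted p 5.6e-04). Ppt1, a thioesterase gene, rose to 90.1 ± 3.09 FPKM in G9gl, against 69.98 ± 0.743 FPKM in WT (limma adjusted p 0.0014). Of 13 membrane proteins 3 rose and 0 fell, among them Laptm5, which rose to 925 ± 20.4 FPKM in G9gl, against 604 ± 17.0 FPKM in WT (limma adjusted p 2.8e-05). Without WT replicate 2 only 2 membrane protein genes were called higher, and without G9gl replicate 1 Cd63 was called lower. Of 15 subunits of the vacuolar ATPase, the pump that acidifies the lysosome, 2 (Atp6v0a1 and Atp6v1f) rose, 0 fell and 13 did not pass, and 1 rose without G9gl replicate 2 or WT replicate 2. With values rescaled to TPM 6 hydrolases rose and 7 fell, 2 membrane proteins rose, and 1 subunit of the pump rose and 1 fell.

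Genes that sort new cathepsins to the lysosome went both ways, since of 12 tested Gnptab rose, Gga2 and Sorl1 fell and 9 did not pass. Gnptab, which makes the mannose 6-phosphate tag, rose to 25.2 ± 2.42 FPKM in G9gl, against 18.0 ± 0.687 FPKM in WT (limma adjusted p 0.0043). Gga2, an adaptor for tagged enzymes, fell to 106 ± 6.81 FPKM in G9gl, against 148 ± 6.53 FPKM in WT (limma adjusted p 7.1e-04). Sorl1, a sorting receptor, fell to 90.1 ± 32.8 FPKM in G9gl, against 152 ± 12.3 FPKM in WT (limma adjusted p 0.018), and its call ended without G9gl replicate 3 or WT replicate 1 or 2. Tfeb, the transcription factor of lysosomal genes, fell to 53.7 ± 1.38 FPKM in G9gl, against 72.5 ± 1.48 FPKM in WT (log2 difference -0.43 ± 0.055 SE, limma adjusted p 6.3e-04). Tfe3 had 17.3 ± 0.556 FPKM in G9gl and 15.3 ± 0.0840 FPKM in WT (limma adjusted p 0.12), while Mitf and Tfec were too low to test.

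**Figure D4:**
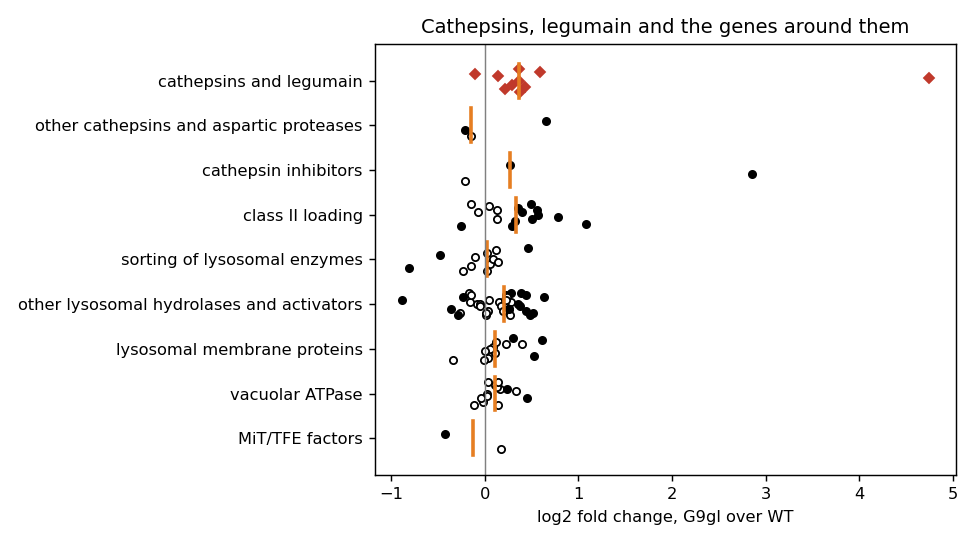
Log2 fold change of G9gl over WT for each of the 10 genes (diamonds) and for each tested gene of the lists around them (circles, filled where limma called the gene), with the median of each row as a vertical bar. The median is 0.37 for the 10 genes, where Ctse lies apart at 4.75, and 0.34 for the class II loading genes.

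Genes around Ctse on chromosome 1 had log2 differences between -0.39 and 0.85. Of 16 other genes in the files within 500 kb, 9 were tested, of which Ikbke and Slc41a1 rose, 0 fell and 7 did not pass. The shares called over all tested genes were 11.8% higher and 11.6% lower. The median log2 difference of the 9 was 0.11. Ikbke, a kinase gene of innate signalling (131254343 to 131279606), rose to 9.08 ± 0.460 FPKM in G9gl, against 4.64 ± 0.930 FPKM in WT (log2 difference 0.85 ± 0.13 SE, limma adjusted p 0.0015). Slc41a1, a magnesium transporter gene, rose to 13.4 ± 0.830 FPKM in G9gl, against 10.7 ± 0.912 FPKM in WT (limma adjusted p 0.041). The Slc41a1 log2 fold change was no longer called when any 1 library but WT replicate 3 was left out, with limma adjusted p of 0.0515 to 0.135, and 1 gene was then called higher. Without G9gl replicate 1 Dyrk3 was called lower, and without WT replicate 3 Nucks1 was. The nearest genes in the files on either side, Avpr1b and Rab7b, averaged 0.0208 and 0.155 FPKM in G9gl and 0.0238 and 0.0526 FPKM in WT.

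**Figure D5:**
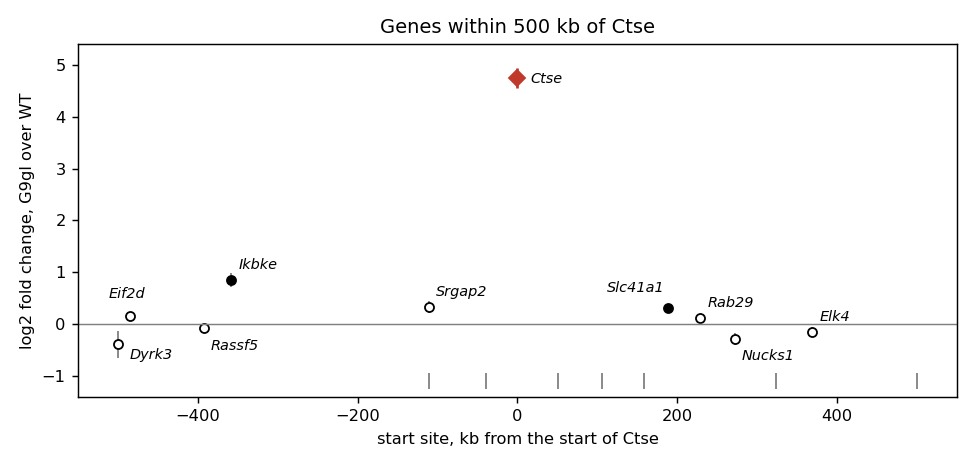
Log2 fold change of G9gl over WT with its SE for the tested genes within 500 kb of Ctse, by the distance of their start from that of Ctse in kb, filled where limma called the gene; the diamond is Ctse and ticks mark untested genes. Ctse lies at 4.75, and the other genes between -0.39 and 0.85.

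The profiles most like that of Ctse were sought among tested genes, leaving out Gm, Rik and small RNA names. Likeness was the root mean square difference between log2(FPKM + 1) values, centred on each gene's mean over the 6 libraries. The smallest differences were those of Il9r (0.57), Serpina3f (0.73), Rhbdf1 (0.84), Lilrb4a (0.85) and Ccl4 (0.93). This measure follows mainly the size of the difference between genotypes, for which Ctse was chosen, and much less the pattern within a genotype. Il9r, the interleukin-9 receptor gene, had 91.9, 109 and 108 FPKM in G9gl libraries against 7.75, 7.58 and 5.96 FPKM in WT libraries. Rhbdf1, an inactive rhomboid protease gene, had 32.4, 50.7 and 52.5 FPKM in G9gl libraries against 3.77, 4.88 and 4.47 FPKM in WT libraries. In both, as in Ctse and Ccl4, replicate 1 was the lowest G9gl library, while Serpina3f was lowest in replicate 3, at 47.8 FPKM, and Lilrb4a highest in replicate 1, at 16.5 FPKM. Among the other cathepsins and Lgmn this difference from Ctse was 2.12 for Ctsl, the nearest, and 2.45 for Lgmn, the farthest. Lilrb4a reached 1 FPKM in G9gl alone (0.742 to 0.998 FPKM in WT), so the filter fixed its direction.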

How the data were processed

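Per the labels' protocols, Trizol was used for the RNA, while cDNA came from the SMART-Seq HT kit and libraries from a Nextera kit; this chemistry keeps no strand. The build mm10 and the tools Cufflinks 2.2.1, TopHat2 2.0.13, SAMtools 0.1.19 and Bowtie2 2.2.3 are named in the submitters' processing notes; the annotation is not given in the sources used here. The authors deposited FPKM per gene symbol, 1 file per library. The unit was read from the tools and values.

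Each library was placed in its group by its title. The main fit was limma 3.58.1 in R 4.3.3 (lmFit, and eBayes with trend) for genotype alone, using log2(FPKM + 1), over genes that reached 1 FPKM in 3 or more of 6 libraries, adjusted by Benjamini-Hochberg over 10122 genes. It was tested on simulated data. SDs are over 3 libraries and SEs from the fit. The members and lists were chosen with earlier results of these data known. By rule, the text may name the 10 members, and up to 4 genes with the smallest p per pathway list and beside Ctse. It may also name detected genes among other cathepsins and inhibitors, and the 5 profiles nearest to Ctse. Those 5 were sought without Gm, Rik and small RNA names. The defining macrophage markers and markers at 0 in all libraries may be named too. Genes outside the rule were named after their values were seen: Glb1, Neu1, Cd74, Ifi30, March1, Cd63, Dyrk3, Avpr1b, Rab7b, Mitf, Tfec, the granule proteases, the genes that share exons with members, and the other cell type markers. Alternatives were other pseudocounts, filters, scalings and variance models, the replicate number as a block, and each library left out in turn. Positions came from GENCODE vM21 (GRCm38, the assembly of mm10). Depth was estimated from genes with 1 annotated transcript of at least 1500 bases, shortened by 250 bases. Promoter sequences came from RefSeq. A planned comparison of protein sequences was not made here. The summed level of the B cell marker list is not reported here.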

Additional observations from a re-analysis of the deposited data

How the results depend on the processing

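The Ctse log2 fold change kept its direction under every alternative run, at 4.61 to 4.98 when 1 library was left out and 4.17 with a pseudocount of 5. Of the 10 genes, 5 were called higher with no filter on low values or after quantile normalization, and 6 to 8 without 1 library. With values rescaled to TPM, 730 genes were called higher and 2493 lower, and leaving out 1 library gave 827 to 1136 higher and 718 to 1172 lower, the lowest without WT replicate 2. Among the 100 tested genes of the lists, 30 were called higher and 9 lower, against 11.8% and 11.6% of all tested genes. The number lower was 5 with no filter, 16 after rescaling to TPM and 5 to 9 without 1 library, lowest without WT replicate 1. Beside Ctse, 1 gene was called higher with no filter, after rescaling to TPM or with the replicate block, and 1 to 2 without 1 library. There 3 were called lower after rescaling to TPM and 0 to 1 without 1 library. GAGGAAGT was found in 2 genes, Ctsc and Ctss, when the 50 bases after the start were included.

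In the titles, libraries of the 2 genotypes share only a replicate number, and no pairing is given. The correlations of same-numbered libraries' deviations from their group means were 0.099, -0.069 and 0.021. Those of unlike-numbered libraries ran from -0.153 to 0.157. Deviations within a group depend on one another, so these values cannot decide whether libraries were paired. With the replicate number as a block, 1044 genes were called higher and 988 lower, and 6 of the 10 genes higher. The causes of these shifts were not tested. No result reversed its sign among called genes. At this depth a value under 1 FPKM rests on few fragments, and the 3 libraries per group limit the precision.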

Other observations

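Il9r (chromosome 11, 32187541 to 32200279) and Rhbdf1 (chromosome 11, 32209585 to 32222300), both among the 5 profiles nearest to Ctse, lie close together on the minus strand. Serpina3f, another of the 5, lies on chromosome 12 at 104214544 to 104221129.

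G9gl replicate 1, the library with the highest value for 8 of the 10 genes, also held 205 FPKM of Hba-a1, a haemoglobin gene, against 67.5 and 29.7 FPKM in the other G9gl libraries and 40.7, 25.8 and 42.7 FPKM in WT libraries. Its paralog Hba-a2, which could share fragments, had 28.4 FPKM in G9gl replicate 3 and 15.5 FPKM in WT replicate 2. The other libraries had at most 0.0579 FPKM of Hba-a2. Jchain, a plasma cell gene, had 5.43, 6.27 and 6.98 FPKM in G9gl libraries against 0.529, 0.795 and 0.414 FPKM in WT libraries. It is 1 of 5 plasma cell markers, of which 4 were tested, with 2 (Sdc1 and Jchain) higher, 1 lower and 1 not passing. Prdm1, untested, averaged 0.493 FPKM in G9gl and 0.718 FPKM in WT. The genes of this paragraph were chosen after their values were seen.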
